A study of Mus musculus with 12 samples.

Results

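Extracellular matrix genes were described in mouse helper T cells in which miR-29 had been raised or blocked. The set took every collagen chain gene and every laminin chain gene by symbol. It added Fbn1, Fbn2, Eln, Sparc, Nid1, Nid2, Fn1, Igfbp7, Ccn4, Lox, Loxl2 and Mmp2. These symbols named 67 genes in RefSeq, and 59 of them had a probe whose accession could be matched, of 17178 genes with a matched probe in all. The remaining 8 genes, Col12a1, Col20a1, Col22a1, Col6a3, Col6a5, Lama3, Lamc1 and Lox, were not analysed here.

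RNA was hybridised to 12 one-colour arrays, 3 for each of 4 groups. Helper T cells lacking Dgcr8 were given miR-29b in 1 group and a control miRNA in another. Wild-type cells, also from C57BL/6 mice, were given inhibitors of miR-29 in 1 group and control inhibitors in the last. All groups came from mice aged 7 weeks, were activated for 65 hours with antibodies to CD3 and CD28, grew for 48 hours in IL-2, were electroporated on day 1 and day 4, and were harvested on day 5, which is 24 hours past the later electroporation. Cells of 1 mouse gave both arrays of a genotype with the same number (2, 3 or 4), and how Dgcr8 was deleted is not given in the sources used here. Dgcr8 is the RNA-binding partner of Drosha, so cells without it make few microRNAs of their own, and a transfected mature miRNA acts in them against a low background. In fibroblasts and other stromal cells the miR-29 family is known for binding the messages of collagens, elastin and fibrillin through its seed and lowering them. T cells lay down little matrix themselves, and they meet it through integrins and other receptors.

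The sequences below show what was added or blocked, and the seed (bases 2 to 8, in capitals) that the 3 family members share. They are RefSeq mature miRNAs on GRCm38.p6, written 5′ to 3′.
mmu-miR-29b-3p: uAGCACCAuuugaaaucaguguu
mmu-miR-29c-3p: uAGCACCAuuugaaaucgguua
mmu-miR-29a-3p: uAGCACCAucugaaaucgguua
The miR-29b sequence is encoded at chr1:195037091-195037113 on the plus strand and again at chr6:31063025-31063047 on the minus strand, miR-29c at chr1:195037600-195037621 on the plus strand, and miR-29a at chr6:31062673-31062694 on the minus strand. Over the shared length miR-29c differed from miR-29b at 3 bases and miR-29a at 4, none of them in the seed. Sites for this seed in the matrix messages were not analysed here.

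Each level below is a log2 spot signal from which that array's 75th percentile was subtracted. A change is a log2 difference of group means with its SE from limma (n = 3 arrays a group unless stated), and adjusted p-values come from that fit over all genes. A level depends on the probe, so levels were compared between arrays and never between genes. Among the arrays, between 27275 and 31394 of 41174 probes exceeded background clearly (the scanner software's own call, "well above background"), and saturation affected 0 spots. Both defining helper T cell markers fixed for this check, Cd3e and Cd4, were well above background on all 12 arrays. Dgcr8 itself ran from -1.25 to -0.15 on Dgcr8-deficient arrays and from -0.16 to 1.01 on wild-type arrays, so the ranges met, and its change among controls of -1.06 ± 0.39 did not pass the threshold (limma, adjusted p = 0.0754). On the miR-29b array of mouse 3 the scanner software marked 1458 spots as outliers, against 68 to 193 elsewhere. Both Dgcr8-deficient arrays of that mouse had a Ddx3y level, a Y-linked transcript, of -8.48 and -8.76, against 0.62 to 2.33 on all others.

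Of the 59 genes, 43 were well above background on at least 3 arrays and entered the test, 27 of them on all 12. The other 16 did not reach that minimum, 8 of them on 1 or 2 arrays and 8 on none. Just outside the minimum stood Col5a2, on 2 arrays, and just inside it stood Col24a1, on 3, and Lama4, on 4. The numbers well above background on every array of a group were 33 in Dgcr8-deficient cells with miR-29b, 35 in their controls, 33 in wild-type cells with inhibitors and 35 in theirs. Neither enzyme with a probe was detected: Mmp2, a gelatinase, and Loxl2, a collagen crosslinker, reached background on 0 arrays. All 9 glycoproteins were kept, as were 10 of 11 fibrillar collagens, 5 of 6 fibril-associated collagens with a probe, 4 of 6 collagen IV chains, 2 of 4 collagen VI chains, 7 of 12 other collagens and 6 of 9 laminin chains. In a bulk sample, fewer cells of a type and less RNA per cell cannot be told apart, and this holds for every value below.

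**Figure D1:**
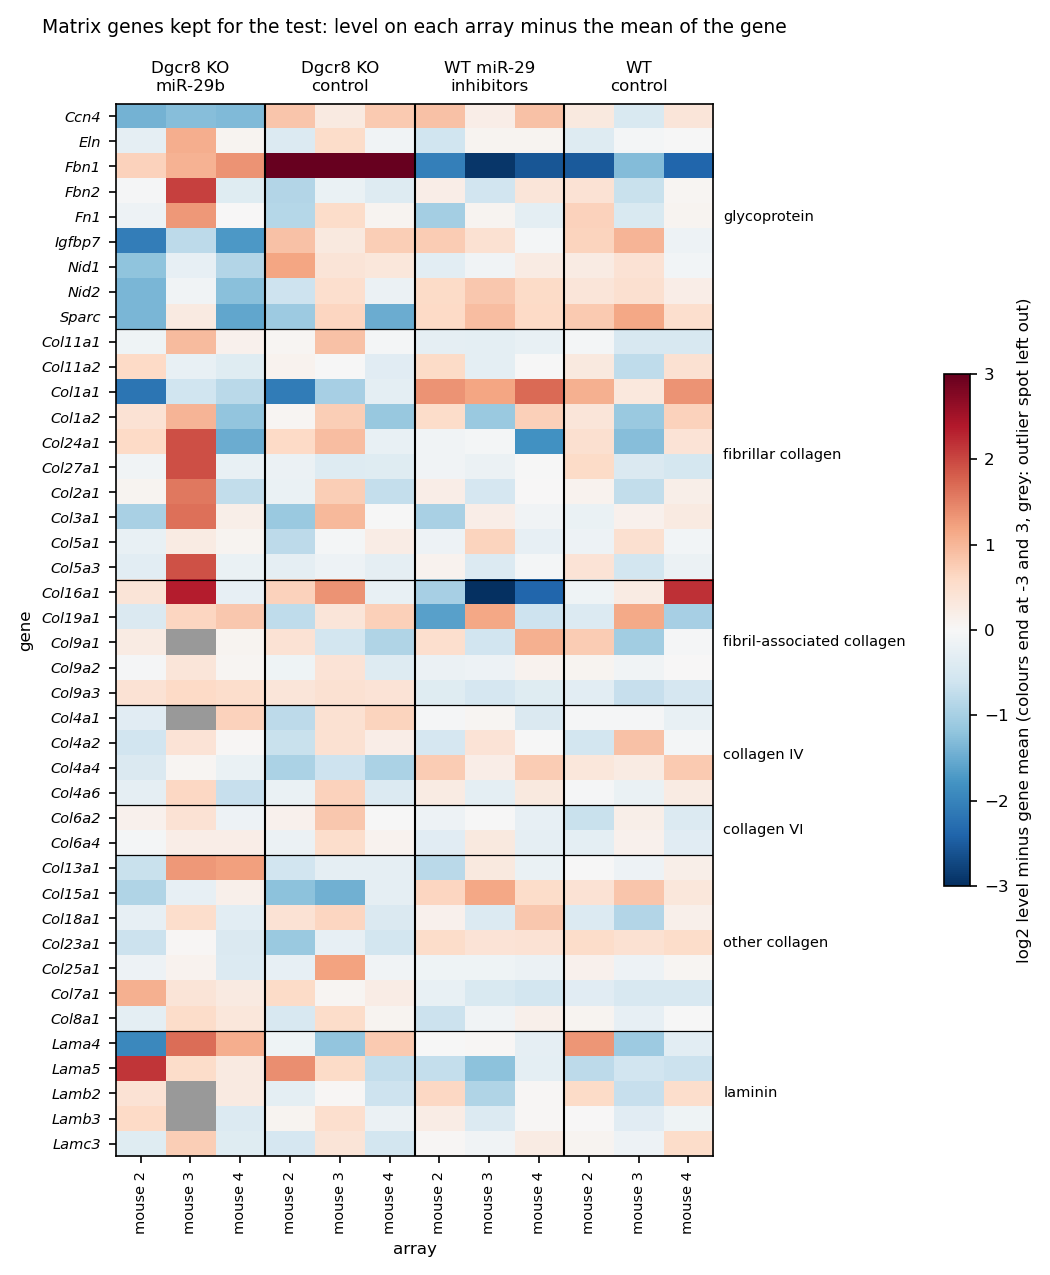
Heat map of 42 of the 43 matrix genes kept for the test, in rows by role, over the 12 arrays in columns by group. Colour is the log2 level minus the mean of the gene, red above and blue below it, and grey marks outlier spots left out. Ccn4, Igfbp7 and Fbn1 are lower in the miR-29b columns than in the Dgcr8-deficient control columns, and the miR-29b column of mouse 3 is the highest of all columns for 15 genes.

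Adding miR-29b to Dgcr8-deficient cells, against control miRNA, was compared first. Among the matrix genes, 4 glycoproteins fell and no gene rose: Fbn1, Igfbp7, Ccn4 and Nid1. No collagen and no laminin chain passed the test. The share of all tested genes called lower was 1.41%, and 4 of 43 matrix genes were called lower. The share called higher was 0.892%, and 0 of 43 were called higher. All 4 genes called lower are among the 12 symbols added by name, and members were chosen with earlier results of these data known. These shares are therefore no test of the set. At an unadjusted p under 0.05 there were 6 of 43 matrix genes, beside 14.1% of all genes. The median change was 0.16 over the matrix genes and 0.07 over all genes.

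Ccn4 encodes a secreted matricellular protein known as a Wnt target. Its levels were -4.60, -4.47 and -4.52 with miR-29b, against -2.36, -2.93 and -2.40 in the Dgcr8-deficient controls of mice 2, 3 and 4. The groups did not overlap, and the miR-29b arrays had an SD of 0.06. Ccn4 fell by 1.97 ± 0.27 on the log2 scale, 3.91-fold (limma, adjusted p = 0.00714).

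Fbn1 encodes fibrillin-1, the core of elastic microfibrils and a reported miR-29 target. It stood at -5.67, -5.32 and -5.01 with miR-29b and at -2.87, -3.21 and -2.36 in the same mice with control miRNA. Every miR-29b array was below every control array, and both groups were well above background on all arrays. The change was -2.52 ± 0.37, 5.73-fold lower (limma, adjusted p = 0.00778). With normexp it was -1.17 and missed the threshold (adjusted p = 0.0928), as Ccn4 did at -1.08 (adjusted p = 0.0754). A second Fbn1 probe, also detected on all 6 of these arrays, differed by -1.46.

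Igfbp7 encodes a secreted protein that binds insulin-like growth factors and sits in vascular basement membranes. With miR-29b it measured -0.79, 0.49 and -0.45, against 2.15, 1.57 and 2.01 in the controls. The 2 groups did not overlap, and mouse 3 showed the smallest difference, -1.07, beside -2.94 in mouse 2 and -2.46 in mouse 4. Igfbp7 fell by 2.16 ± 0.39 on the log2 scale, 4.46-fold (limma, adjusted p = 0.0194).

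Nid1 and Nid2 encode nidogens, which link the laminin and collagen IV networks of basement membranes. Nid1 was -7.63, -6.67 and -7.30 with miR-29b and -5.25, -6.05 and -6.09 in the controls. It was well above background on all 3 control arrays and on 0 of 3 with miR-29b. Only a bound can therefore be given, 2.02-fold lower on the scale used here. The fitted change passed the threshold (limma, adjusted p = 0.0427). In the authors' deposited table the Nid1 change was -0.44 (limma, adjusted p = 0.159), and with normexp it was -0.07, both smaller than the bound. Nid2 was -4.17, -2.92 and -4.06 with miR-29b, against -3.42, -2.31 and -2.98 in the controls. Its groups overlapped while each mouse differed the same way, by -0.75, -0.60 and -1.08. Nid2 did not pass the threshold (-0.81 ± 0.35, limma adjusted p = 0.319) and did once the mouse was a block (limma, adjusted p = 0.00762).

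**Figure D2:**
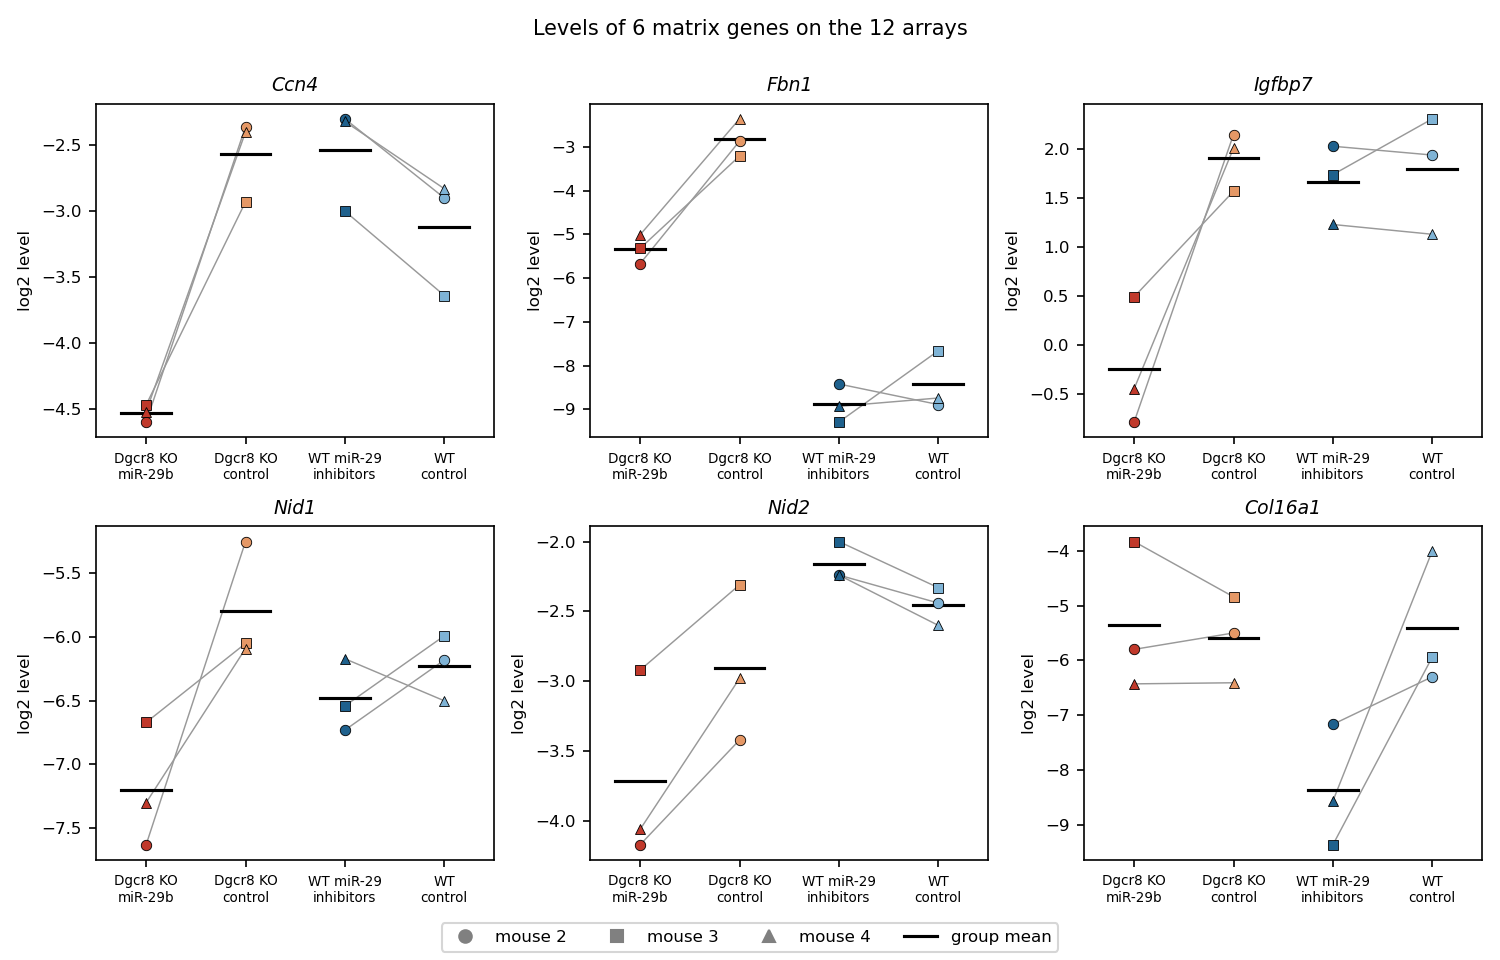
Log2 levels (signal minus the 75th percentile of the array) of 6 matrix genes in each group. Symbols are arrays, grey lines join arrays of 1 mouse, and black bars are group means; Fbn1 in both wild-type groups, Nid1 with miR-29b and Col16a1 with inhibitors were not well above background on any array. Ccn4 lies between -4.60 and -4.47 on all 3 miR-29b arrays and at -3.64 or above on every other array.

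With the mouse as a block, 6 matrix genes were called lower and 3 higher, against 10.1% lower and 10.6% higher among all genes. Both background shares were larger than in the fit without the block. Among the additional genes were Nid2, which was lower, and Col4a4, Col15a1 and Lamb2, which were higher. Col4a4, a chain of the kidney glomerular basement membrane, was -0.06, 0.43 and 0.17 with miR-29b and -0.57, -0.25 and -0.57 in the controls. Its blocked change was 0.64 ± 0.12 (limma, adjusted p = 0.0176). Col15a1, a basement membrane zone collagen, had a blocked change of 0.64 ± 0.17 (limma, adjusted p = 0.0435), from 0.34, 1.17 and 0.42 in the 3 mice. Lamb2, a laminin beta chain, lost its miR-29b spot of mouse 3 as an outlier. Its blocked change of 0.82 ± 0.16 (limma, adjusted p = 0.024) therefore rests on differences of 0.74 and 0.89 in mice 2 and 4.

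Among collagens that are reported miR-29 targets in other cells, none was called without a block, and Col15a1 was called higher with the mouse as a block. Col1a2, a chain of type I collagen, measured -1.71, -1.14 and -3.33 with miR-29b and -2.10, -1.41 and -3.29 in the controls (change 0.21 ± 0.74). Col3a1, the fibrillar collagen of soft tissues, changed by 0.33 ± 0.66. Col4a1 and Col4a2, the common basement membrane chains, changed by 0.07 ± 0.44 and -0.04 ± 0.43, the first on 5 arrays, because an outlier spot was left out. Elastin, the product of Eln, changed by 0.29 ± 0.37, fibronectin, of Fn1, by 0.46 ± 0.49, and Sparc, a collagen-binding matricellular protein, by -0.24 ± 0.57. Of the 15 members on a list of reported miR-29 targets, curated from memory, 12 were tested. Of these 1 fell (Fbn1), 11 missed the threshold and 0 rose in the fit without a block; their median change was 0.23. In the fit blocked on mouse, Col15a1 was called higher (limma, adjusted p = 0.0435). Col5a2, a fibrillar collagen on that list, was left out of the test by its low signal, with -7.81, -8.14 and -8.24 with miR-29b, against -6.00, -6.87 and -6.84 in the controls.

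The miR-29b array of mouse 3 was the highest of the 12 for 15 of the 43 matrix genes, 34.9%, beside 18% of all genes. Median changes of the matrix genes were 0.08, 0.27 and 0.03 in mice 2, 3 and 4, against 0.11, 0.01 and 0.07 over all genes. The median of 0.16 over all 3 mice was -0.11 without that array and -0.01 without the control array of mouse 2. It was also -0.01 in the authors' deposited table and 0.00 with quantile normalization, so its sign was not stable. Spots marked as outliers were left out of the reported medians. With such spots kept on all arrays the median was 0.25 over the matrix genes and 0.12 over all genes. The outlier spots of that array alone were not tested.

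With only the 6 Dgcr8-deficient arrays in the limma fit, 0 genes of all 14694 were called (1374 of them and 5 matrix genes at an unadjusted p under 0.05), and the adjusted p was 0.152 for Ccn4 and Fbn1. Leaving out both arrays of mouse 2, or both of mouse 4, also left 0 matrix genes called, with Ccn4 at adjusted p values of 0.109 and 0.0726. Nid1 was not past the threshold in 13 of 21 alternatives, among them outlier spots kept (adjusted p = 0.0597) and normexp background correction (-0.07, adjusted p = 0.959). Leaving out any 1 of the mouse 2 and mouse 4 arrays of either group took Igfbp7 to adjusted p values of 0.0626 to 0.0882 and Nid1 to 0.0672 to 0.139. Leaving out the control array of mouse 3 took Nid1 to 0.0792.

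Genes that make, bind or cut matrix were set beside the members. Of 24 collagen processing genes, 18 were tested and 0 were called, with a median change of -0.05. Of 24 matrix receptors, 19 were tested and 0 were called, with a median of -0.17. Among them Itgb1, the shared beta 1 integrin chain, changed by -1.07 ± 0.27 (limma, adjusted p = 0.0708) and Dag1, the laminin receptor dystroglycan, by -1.23 ± 0.32 (adjusted p = 0.0876). Of 15 matrix proteases and inhibitors, 10 were tested, and 1 rose, beside 0.892% of all genes: Mmp11, stromelysin-3, by 1.41 ± 0.22 (limma, adjusted p = 0.0117). Of 10 fibroblast and stromal markers, 7 were tested and 0 called, and their summed linear signal was 24.6 to 35.8 with miR-29b, against 24.6 to 37 in the controls. Acta2, at log2 levels of 4.47 to 5.17 on these arrays, made up most of each sum. The sums therefore say little of the other stromal markers. Of these 10 markers, Pdgfrb, Acta2 and Tagln were well above background on all 12 arrays, Pdpn on 10, Dcn on 5, Lum and Twist1 on 4, and Pdgfra, Postn and Dpt on 1. Of 7 endothelial markers, Pecam1 and Cldn5 were so on all 12, Kdr on 4, Emcn on 3, and Cdh5, Tek and Tie1 on 0. The part of such cells in the matrix levels was not tested.

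The second comparison asks what blocking miR-29 changes in wild-type cells. No matrix gene and no gene at all passed the threshold in limma, so the share called was 0%. At an unadjusted p under 0.05 there were 63 genes (0.429% of all), 1 of them among the 43. That gene was Col16a1, a fibril-associated collagen. It was -7.17, -9.37 and -8.57 with inhibitors, well above background on 0 of 3 arrays, and -6.30, -5.94 and -4.00 in wild-type controls, on 3 of 3. Its groups did not overlap, and the difference had a bound of 2.71-fold lower on the scale used here. The fitted change had an unadjusted limma p of 0.00475 and an adjusted p of 1, and ran from -4.00 to -0.65 over 21 alternatives. A second Col16a1 probe was well above background on 0 wild-type arrays.

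None of the 4 genes lowered by miR-29b was called in wild-type cells. Ccn4 was -2.30, -3.0 and -2.32 with inhibitors, against -2.90, -3.64 and -2.83 in wild-type controls. It was higher with inhibitors in each mouse, by 0.60, 0.64 and 0.51, although the groups overlapped (0.59 ± 0.27, limma adjusted p = 1). Igfbp7 measured 2.03, 1.74 and 1.23 with inhibitors and 1.94, 2.31 and 1.13 in the controls, a change of -0.13 ± 0.39. Nid1 changed by -0.26 ± 0.30, with differences of -0.56, -0.55 and 0.33 in mice 2, 3 and 4. Nid2 is not one of the 4, since miR-29b lowered it past the threshold only with a block. It was -2.24, -2.00 and -2.24 with inhibitors and -2.44, -2.33 and -2.60 in the controls, higher in each mouse with no overlap (0.30 ± 0.35, limma adjusted p = 1). Fbn1 was not well above background on any wild-type array, so no change can be given for it. The median change was 0.00 over the 43 genes and 0.02 over all genes.

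**Figure D3:**
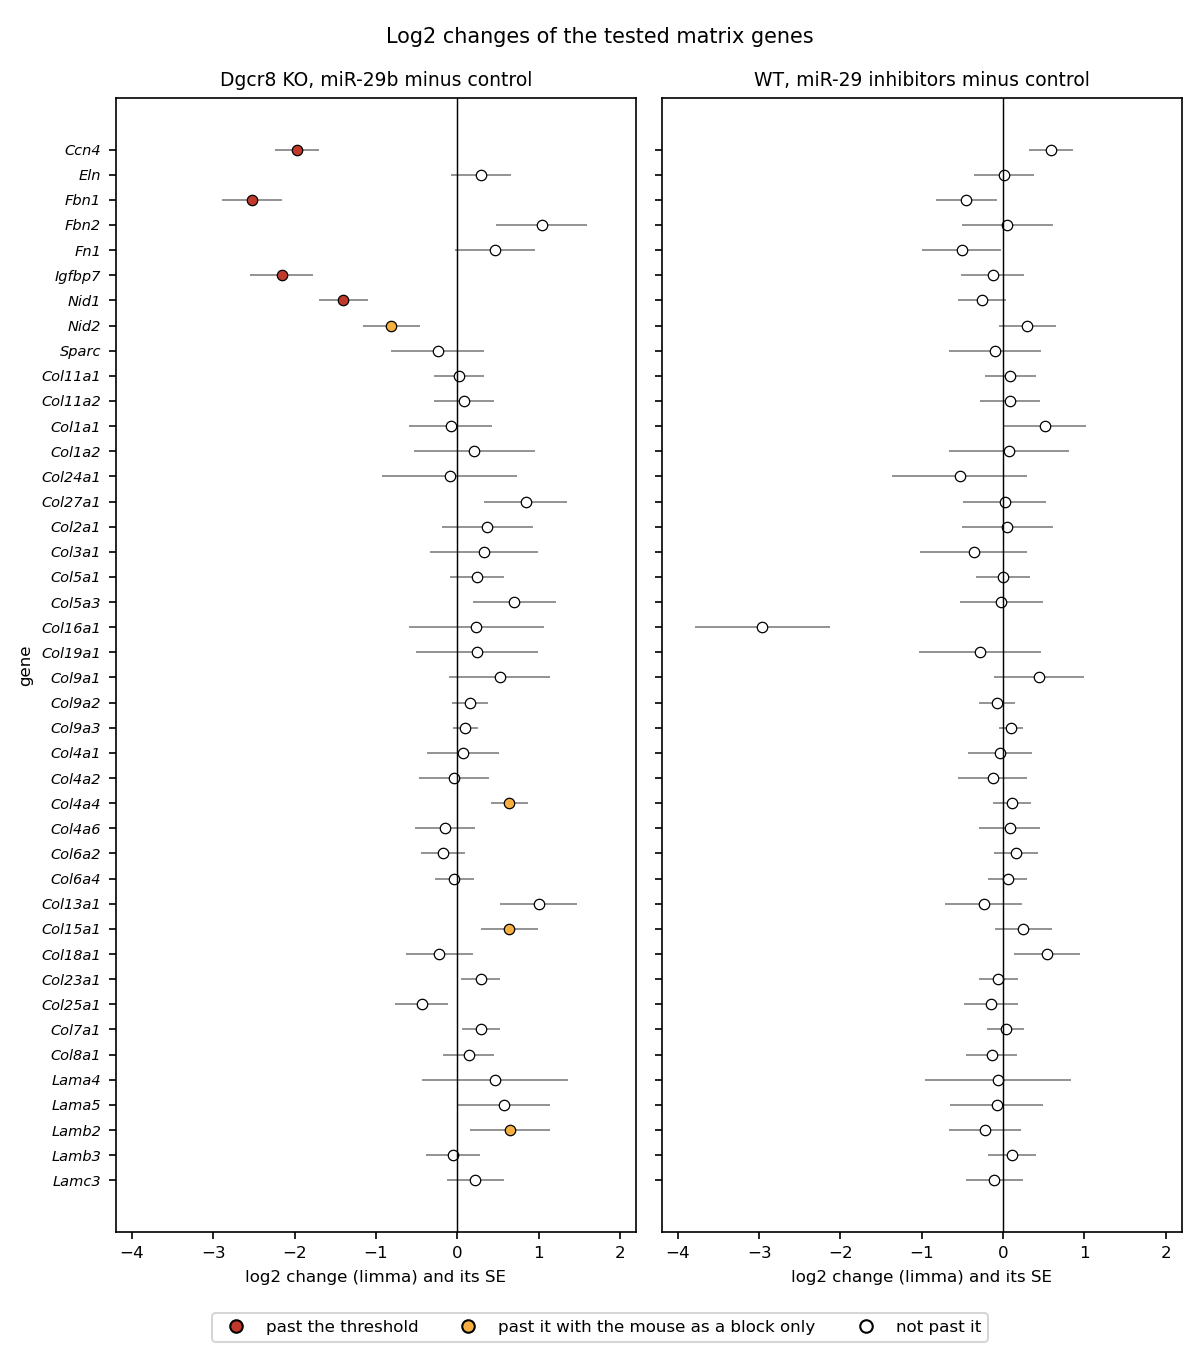
Log2 changes from limma with their SE (horizontal lines) for 42 of the 43 tested matrix genes, by role, with miR-29b minus control in Dgcr8-deficient cells on the left and inhibitors minus control in wild-type cells on the right. Red marks genes past an adjusted p of 0.05, orange those past it only with the mouse as a block, white the others. All 4 red genes are glycoproteins that are lower with miR-29b. The points of Nid1 on the left, and of Fbn1 and Col16a1 on the right, are fitted values against groups not well above background. No gene is red or orange in wild-type cells.

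The difference between the 2 effects was tested as an interaction. Ccn4 was the 1 matrix gene past the threshold, at -2.55 ± 0.38 (limma, adjusted p = 0.0317), beside 0.157% of all genes called lower and 0.0136% called higher. Its effects were -1.97 with miR-29b and 0.59 with inhibitors, each in the same direction in 3 of 3 mice. With the mouse as a block, Ccn4 and Nid2 were called lower and 0 matrix genes higher, beside 3.83% and 1.88% of all genes. Nid2 then differed by -1.11 ± 0.16 (limma, adjusted p = 0.0204). Igfbp7 differed by -2.03 ± 0.55 and did not pass in the fit without a block (limma, adjusted p = 0.23). The Ccn4 call was lost in 19 of 31 alternatives, with adjusted p values up to 0.325, while its size stayed between -2.78 and -1.35. Leaving out any array but the miR-29b or the inhibitor array of mouse 3 took its adjusted p to 0.0517 to 0.138.

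The third comparison sets Dgcr8-deficient cells against wild-type cells, both with control oligonucleotides. These groups differ in genotype and also in the kind of control (a miRNA against inhibitors), and the 2 cannot be told apart. Fbn1, Col9a3 and Col7a1 were among the genes higher in Dgcr8-deficient cells, and Col1a1, Col15a1, Col4a4 and Col23a1 were lower. In all, 4 of 43 were higher, beside 9.26% of all genes, and 4 of 43 were lower, beside 13.0% of all genes, so neither share stood far from the background. The median change was -0.03 over the matrix genes and -0.08 over all genes.

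Fbn1 was -2.87, -3.21 and -2.36 in Dgcr8-deficient controls and -8.89, -7.66 and -8.74 in wild-type controls. Well above background on all Dgcr8-deficient arrays and on 0 of the wild-type ones, it had a bound of 15.2-fold higher in Dgcr8-deficient cells. The fitted change passed the threshold (limma, adjusted p = 7.35e-06). Over 23 alternatives the fitted change ran from 1.41 to 6.00, so the bound holds for this processing only. A second Fbn1 probe gave a bound of 3.66-fold. Since miR-29b lowered the same gene within the Dgcr8-deficient cells, its mean levels ran -5.33 ± 0.33 with miR-29b, -2.81 ± 0.43 with control miRNA and -8.43 ± 0.67 in wild-type controls, where it was not well above background (SD, n = 3 each). The miR-29b arrays thus lay between both control groups, and both comparisons share the Dgcr8-deficient controls.

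Col9a3, a chain of the cartilage collagen IX, was -3.66, -3.55 and -3.61 in Dgcr8-deficient controls, against -4.34, -4.72 and -4.53 in wild-type controls, a separate spread in both groups (0.93 ± 0.15, limma adjusted p = 0.00142). With normexp background correction its change was 0.28 and was not called (adjusted p = 0.492). Col7a1, the collagen of anchoring fibrils in skin, was -0.09, -0.61 and -0.44 in Dgcr8-deficient controls, against -1.0, -1.15 and -1.14 in wild-type controls. Its change was 0.72 ± 0.23 (limma, adjusted p = 0.0463).

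Col1a1, the main chain of type I collagen, was -8.56, -7.46 and -6.75 in Dgcr8-deficient controls and -5.41, -6.15 and -5.11 in wild-type controls. It was well above background on 0 of the 3 Dgcr8-deficient control arrays and on 2 of the 3 wild-type ones. The bound was 2.23-fold lower in Dgcr8-deficient controls on the scale used here. Col1a1 passed the threshold (limma, adjusted p = 0.0161), with fitted changes of -2.45 to -0.55 over 23 alternatives. Its 2 other probes were well above background on 1 Dgcr8-deficient control array each, and on 1 and 0 wild-type control arrays. Their group means, mostly of signal not well above background, differed by 0.10 and -0.23. With normexp Col1a1 was not called (limma, adjusted p = 0.162), nor with the mean of its kept probes (-0.72, limma adjusted p = 0.218). Col4a4 was -0.57, -0.25 and -0.57 in Dgcr8-deficient controls, against 0.72, 0.62 and 1.17 in wild-type controls, with a change of -1.30 ± 0.23 (limma, adjusted p = 0.00243). Col15a1 changed by -1.52 ± 0.35 (limma, adjusted p = 0.0102) and Col23a1, a transmembrane collagen, by -1.16 ± 0.24 (limma, adjusted p = 0.00566). Another Col23a1 probe, seen on all arrays, differed by -0.47, and the call was lost with the mean of its probes (adjusted p = 0.174).

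Sparc was -4.64, -2.92 and -5.04 in Dgcr8-deficient controls and -2.78, -2.39 and -3.06 in wild-type controls. The groups overlapped through mouse 3, and the change of -1.46 ± 0.57 did not pass (limma, adjusted p = 0.1). Without the control array of that mouse it was -2.10 (adjusted p = 0.0148). A second Sparc probe, well above background on all 6 wild-type arrays and on 0 Dgcr8-deficient arrays, had a bound of 9.83-fold lower in Dgcr8-deficient controls.

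**Figure D4:**
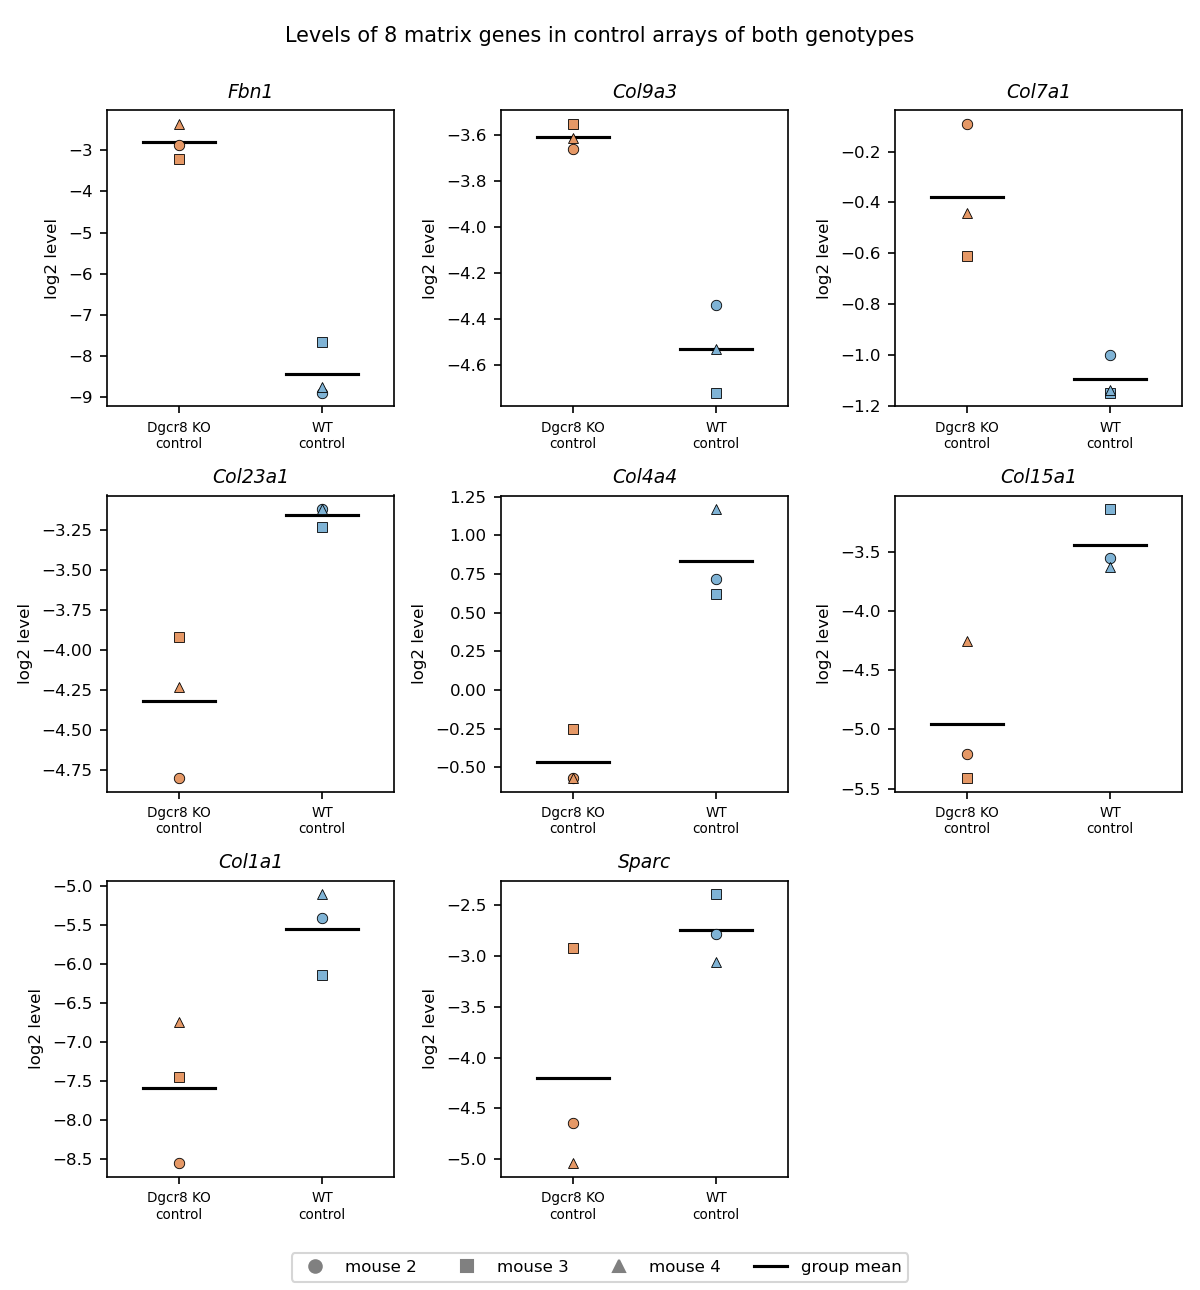
Log2 levels (signal minus the 75th percentile of the array) of 8 matrix genes in the control arrays, Dgcr8-deficient on the left and wild-type on the right of each panel. Symbols are arrays, one for each mouse number, and black bars are group means; equal numbers in both genotypes are different mice. The groups overlap for Sparc alone, and Fbn1 in wild-type cells and Col1a1 in Dgcr8-deficient cells were well above background on 0 of 3 arrays.

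Slides held arrays of both genotypes in 2 cases, and the differences within them were compared. Col9a3 differed by 0.68 and 1.11, and Col7a1 by 0.91 and 0.71. Col4a4 differed by -1.28 and -1.19, Col15a1 by -1.66 and -1.12, and Col23a1 by -1.68 and -1.0. These differences use the same control arrays, and the groups of these 5 genes did not overlap. Their direction on each slide was therefore fixed in advance, and only the sizes are informative. The same holds for Fbn1, at 6.02 and 5.3, and for Col1a1, whose sizes of -3.15 and -0.6 were far apart. Each of these 2 genes was not well above background in 1 of the groups. With slide as a block 6 matrix genes were called higher and 8 lower, beside 16.3% and 25.5% of all genes, and with the mouse as a random block 4 higher and 5 lower, beside 8.64% and 11.9%. Sparc was called with either block, at -2.17 ± 0.20 with slide (limma, adjusted p = 0.000217). Col1a1 missed the threshold without the Dgcr8-deficient control array of mouse 2 (adjusted p = 0.0584) or the wild-type control array of mouse 2 (0.0542) or 4 (0.065). Col7a1 missed it without any 1 control array of either genotype, except that of Dgcr8-deficient mouse 3, at 0.0871 to 0.157.

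Markers of B cells moved with the same genotype comparison. Of 5 such markers 4 were higher in Dgcr8-deficient controls. Over all tested genes, 9.26% were called higher and 13.0% lower in this comparison. Their summed linear signal was 4.19 to 9.18 in Dgcr8-deficient controls and 0.346 to 0.498 in wild-type controls. Of 7 tested stromal markers 1 was higher, Pdgfrb, a receptor of pericytes and fibroblasts (2.93 ± 0.61, limma adjusted p = 0.00596), and of 6 tested myeloid markers 1 was higher and 2 were lower. Of 11 T cell markers 1 was higher and 2 were lower, of 5 epithelial markers 1 was higher, and 0 of 4 tested endothelial and 0 of 5 tested platelet markers were called. The platelet marker Pf4 was well above background on 3 of 12 arrays. The part of any of these cells in the matrix differences was not tested.

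Outside the set, 4 of 19 tested matrix receptors were higher in Dgcr8-deficient controls and 1 was lower. Over all tested genes, 9.26% were called higher and 13.0% lower, which applies to each count in this paragraph. Itgav, the alpha V integrin chain, rose by 1.94 ± 0.18, its partner Itgb3 by 1.03 ± 0.25, Dag1 by 1.64 ± 0.32 and Lair1, an inhibitory collagen receptor of leukocytes, by 1.37 ± 0.32, with limma adjusted p values of 6.53e-05, 0.0131, 0.0046 and 0.0116. Itga7, a laminin-binding integrin chain, fell by 1.39 ± 0.40 (limma, adjusted p = 0.029). Of 18 tested collagen processing genes 2 were higher: P4ha2, a prolyl hydroxylase subunit (2.06 ± 0.52), and Crtap, a cartilage-associated prolyl 3-hydroxylation partner (1.72 ± 0.20). Of 10 tested proteases and inhibitors 1 was higher, the membrane-type protease Mmp15 (1.54 ± 0.50, limma adjusted p = 0.0486).

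Among the 10 brightest kept probes, those with no call without a block and none with the mouse as a block were Lama5, Col18a1, Col11a2, Col4a6, Col1a2 and Col2a1. Lama5, the alpha chain of laminin-511, averaged 2.54 ± 1.01 with miR-29b and 1.97 ± 1.07 in Dgcr8-deficient controls, then 0.81 ± 0.47 with inhibitors and 0.89 ± 0.11 in wild-type controls (SD, n = 3 each). Its genotype change of 1.08 ± 0.57 did not pass (limma, adjusted p = 0.219). Col18a1, the source of endostatin, changed by -0.22 ± 0.41 with miR-29b and by 0.54 ± 0.41 with inhibitors. Col11a2 and Col4a6 changed by no more than 0.15 on the log2 scale in either treatment, with SEs of 0.37. A second Col11a2 probe, well above background on all 12 arrays, differed by -0.51 with miR-29b and by -0.16 with inhibitors.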

How the data were processed

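The deposited scanner files give spot intensity in arbitrary units and, per the file headers, were written by version 10.5.1.1 of Feature Extraction (Agilent). That step removes background, with no scaling between arrays. A log2 table was deposited too, for which the submitters' processing notes name limma, with no version. Its column medians were 6.95 to 6.96 and its columns correlated with the scanner values at 0.962 to 0.977, so it runs the same way, and its centring and background step are not given in the sources used here. It served as an alternative.

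Here the processed signal was put on the log2 scale and the 75th percentile of each array was subtracted. Control spots and spots marked as outliers were left out, and spots of a probe were averaged. Probe accessions named 24844 of 41174 probes with 1 gene through RefSeq and left 16330 unnamed. The brightest probe stood for a gene, and genes well above background on at least 3 of 12 arrays were tested (14694 genes). limma 3.58.1 in R 4.3.3 fitted all 12 arrays in 4 groups, with Benjamini-Hochberg adjustment over all genes and a threshold of 0.05. Without a block, p-values measure the spread between arrays of a group, pooled over the groups, and leave the pairing by mouse out. With the mouse as a fixed block, they measure how far the differences within mice vary. The number of arrays limits the precision. On simulated data for the miR-29b comparison (14694 genes), limma recovered 30 of 100 genes changed by 1 on the log2 scale and 69 of 100 changed by 2. It also called 6 unchanged genes. The simulated noise was independent between arrays, unlike the data, where arrays of 1 mouse correlated.

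Arrays of 1 mouse share its number within a genotype, per the series' design text, and their residuals correlated at 0.418 to 0.747. A fit with the mouse as a fixed block was therefore added within genotypes, and a random block across them. Equal numbers across genotypes (0.271, -0.283 and -0.354) are different mice. Both arrays of a mouse shared 1 of 4 slides and 1 of 2 scan days. A bound against a group not well above background takes, on each array of that group, the higher of its own signal and the dimmest detected probe. It holds for the scale used here and is not a floor over other ways of processing.

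The members, gene lists and comparisons were chosen with earlier results of these data known. The named genes were all members called in any comparison, the 3 with the smallest p in each, the 10 brightest kept probes, 19 key genes and those called with the mouse as a block. Leaving outlier spots out, and the fixed block, were settled after first fits with those spots kept and with a random block had been seen. Files hold no mean spot signal, so normexp used the median signal. Scaling, background, filter, probe choice, outlier spots, blocks and left-out arrays were varied. Some genes are counted in the totals and are not reported here by name.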

Additional observations from a re-analysis of the deposited data

Results flagged for a closer look

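Ccn4 had a difference between its 2 effects past the threshold: the change with miR-29b in Dgcr8-deficient cells minus the change with inhibitors in wild-type cells was -2.55 on the log2 scale (limma interaction, adjusted p = 0.0317). It was lower with miR-29b in 3 of 3 mice and higher with inhibitors in 3 of 3 mice. The inhibitor effect alone was not called (0.59 ± 0.27, limma adjusted p = 1).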

How the results depend on the processing

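Counts below are of the 43 matrix genes past the threshold in limma. For miR-29b in Dgcr8-deficient cells (4 in the fit reported) the count was 1 with normexp, 2 when genes had to be well above background on all 12 arrays, with either probe choice, 7 with slide as a block, 9 with the mouse as a block, and 11 with the mouse as a random block. Calls over all 14694 genes were 2456, 3048 and 3701 in these 3 blocked fits, against 338 without a block, so both counts grew. It was 0 with only the arrays of the 2 groups, and 0 without both arrays of mouse 2 or of mouse 4. Leaving out 1 array gave 2 to 4. Their median change was 0.00 with quantile normalization, -0.01 in the authors' deposited table, 0.30 without both arrays of mouse 4, and -0.11 (without the miR-29b array of mouse 3) to 0.32 (without its control) with 1 array left out. Ccn4 missed the threshold in 4 of 23 alternatives and Fbn1 in 4 of 21, normexp among them. Keeping outlier spots, the setting of a first fit that had been seen, left Nid1 short of the threshold (limma, adjusted p = 0.0597); that alternative and the random block were added after seeing the data.

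With inhibitors in wild-type cells the median was -0.14 with normexp. For genotype (8 in the fit reported) the count was 5 with normexp, 14 with slide as a block, and 5 without both arrays of wild-type mouse 2 or of mouse 4. For the difference of effects (1, Ccn4) the count was 0 with normexp, quantile or median scaling and without both arrays of any 1 mouse. It was 2 in the authors' deposited table, with slide as a block and with the mouse as a block, and 5 with the mouse as a random block, where calls over all genes were 92, 600, 839 and 1525. Leaving out 1 array gave 0 to 1. The median of these differences was 0.04 in the authors' deposited table, 0.07 without both arrays of Dgcr8-deficient mouse 3, and -0.04 (without its miR-29b array) to 0.32 (without that of mouse 2) with 1 array left out. Requiring all 12 arrays left 27 genes detected. Where an alternative used fewer arrays or genes, that is its construction; for the others the cause was not tested. Signal over background limits Nid1, Fbn1, Col1a1 and Col16a1 to bounds.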

Other observations

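Col1a2 and Col2a1 had their lowest levels on the 4 arrays of 1 slide. Col1a2 was -3.33 with miR-29b, -3.29 in the Dgcr8-deficient control, -3.27 with inhibitors and -3.26 in the wild-type control on the 1 slide that formed the second scan day, and -2.10 to -1.14 on the arrays of the 3 other slides. Col2a1, a cartilage collagen, was -3.20, -3.17, -2.97 and -3.20 on those 4 arrays in the same order, and -2.65 to -0.87 elsewhere. That slide held 1 array of each group, and the part of slide in these levels was not tested.

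Among genes under the detection minimum, Col5a2 was well above background on 2 arrays, both of Dgcr8-deficient controls. Its mean was -8.06 ± 0.23 with miR-29b and -6.57 ± 0.49 in Dgcr8-deficient controls, then -8.21 ± 0.76 with inhibitors and -8.38 ± 0.67 in wild-type controls (SD, n = 3 each). Col5a2 was not tested, and it was singled out after its values were seen.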
